A study of Homo sapiens with 5 samples.

Results

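A group of 10 genes that ERK signaling is known to switch on were followed across 5 clones of CP70, the cisplatin-resistant subline of the human ovarian cancer line A2780. They are the phosphatases DUSP6, DUSP4 and DUSP5, the pathway inhibitors SPRY2, SPRY4 and SPRED1, the transcription factors ETV4 and ETV5, PHLDA1, and the receptor EPHA2. Each is named alone by 1 probe set of the array, so no choice by mean over the 5 arrays was needed. All 10 genes were kept among the 15612 genes tested, and 9 of them were above the filter level on all 5 arrays. DUSP6 was above it on 3. The list was chosen by the values of DUSP6 and PHLDA1, which had been seen to be lower in the DDB2 clones. The difference of that pair between the groups is therefore a description. Its place against the thresholds given below is stated, and nothing is read from it. The other 8 members were listed for their known relation to ERK.

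The arrays hold 3 clones stably transfected with a vector that expresses DDB2, a protein that recognizes damaged DNA, and 2 clones stably transfected with the empty vector, all grown in the same medium with serum and without further treatment. One array was run per clone, and the labels number the vector clones 1 and 3 and the DDB2 clones 1, 2 and 3. The source name of vector clone 3 gives its number as 2. DDB2 itself had log2 values of 7.84 and 7.25 in vector clones 1 and 3, against 9.87, 9.00 and 9.14 in DDB2 clones 1, 2 and 3, so the labels of the groups fit the expressed gene. The arrays had medians of 4.40 to 4.45 on the log2 scale. Of 5 epithelial markers, the keratins KRT8 and KRT18 lay between 6.71 and 8.67, KRT19 (4.74 to 4.91) and CDH1 (4.30 to 4.44) lay near the filter level of 4.42, and EPCAM had 7.26 and 5.86 in the vector clones, against 5.53, 5.44 and 5.29 in the DDB2 clones. EPCAM was past the thresholds of the study, more than a 2-fold change with an unadjusted P under 0.05, as lower in the DDB2 clones (log2 difference -1.14, unadjusted P = 0.0475 and adjusted p = 0.999 from limma), but was not past them without vector clone 1, where the log2 difference was -0.44, or without any one of the DDB2 clones (-1.20 to -1.08). Of 5 ovarian carcinoma markers, SOX17 lay at 5.66 to 5.74, PAX8, WT1 and MUC16 nearer the filter level (4.33 to 5.28) and EMX2 below it (3.35 to 3.71). The leukocyte markers PTPRC, CD3E and CD14 were below it in every clone (2.32 to 4.38), and the endothelial markers PECAM1, VWF and CDH5 were at 2.84 to 4.67. Of 4 fibroblast markers, COL1A1 and COL1A2 lay at 4.59 to 5.85, with a summed log2 level of 6.35 to 6.43 in the vector clones, against 6.19 to 6.37 in the DDB2 clones. The other 2, DCN and LUM, were at 6.02 and 4.73 in DDB2 clone 1 and at no more than 4.01 elsewhere. The part of such genes in the differences among clones was not tested.

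ERK is the last kinase of the cascade that runs from receptor tyrosine kinases through Ras, Raf and MEK. Once active, it phosphorylates transcription factors of the ETS family and other nuclear proteins, and the genes that are induced include its own brakes. DUSP phosphatases remove the activating phosphates from MAP kinases, Sprouty and Spred proteins act further up at the step to Ras, and the mRNA of such feedback genes is often read as a gauge of the pathway.

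The promoters of DUSP6, SPRY2 and PHLDA1, the members with the widest range among clones, are shown because DUSP6 and SPRY2 were both lowest in DDB2 clones 2 and 3 and highest in vector clone 3, and PHLDA1 was not. Each run is the 250 bases before the start of the gene in the RefSeq annotation of GRCh38.p14, read on the minus strand that carries the gene, at chr12:89352502-89352751 for DUSP6, chr13:80341127-80341376 for the farthest upstream of the starts of SPRY2, and chr12:76031777-76032026 for PHLDA1. Capitals mark matches on either strand to CCGGAA, a strict form of the site bound by ETS factors, or to TGACG, a part of the CREB site.
DUSP6: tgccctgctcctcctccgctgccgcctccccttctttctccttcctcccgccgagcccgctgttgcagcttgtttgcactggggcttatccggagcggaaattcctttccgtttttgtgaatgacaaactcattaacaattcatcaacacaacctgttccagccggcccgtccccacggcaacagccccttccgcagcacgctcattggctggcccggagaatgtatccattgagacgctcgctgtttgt
SPRY2: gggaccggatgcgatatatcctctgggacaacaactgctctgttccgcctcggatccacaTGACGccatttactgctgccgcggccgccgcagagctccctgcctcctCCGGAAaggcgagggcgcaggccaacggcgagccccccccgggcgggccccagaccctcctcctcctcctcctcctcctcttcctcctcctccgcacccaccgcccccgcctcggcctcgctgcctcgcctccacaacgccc
PHLDA1: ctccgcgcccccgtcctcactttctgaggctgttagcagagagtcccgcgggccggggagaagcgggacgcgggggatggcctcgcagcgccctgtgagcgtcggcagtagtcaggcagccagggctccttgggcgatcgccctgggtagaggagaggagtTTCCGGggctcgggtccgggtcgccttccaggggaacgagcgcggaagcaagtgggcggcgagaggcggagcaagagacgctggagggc
The ETS core stood 142 bases before the start of SPRY2 and 89 bases before that of PHLDA1, and these letters are not in the DUSP6 window. Among 35116 promoter windows of this length, 14.5% held the ETS core. TGACG was found in the SPRY2 window and in 21.2% of all windows. The AP-1 site TGANTCA and the SRF box, present in 6.57% and 1.16% of all windows, had no match in the 3 windows shown, and no matches overlapped. Of the 10 members, 6 had a window that was scanned, and any window on the chromosome of DUSP4 was left out of the scan. In the windows scanned outside the 3 genes shown, only TGACG was matched, in EPHA2 and SPRY4. The windows at the other starts of SPRY2 had no match to any of these motifs.

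DUSP6, the cytoplasmic phosphatase of ERK, had log2 values of 5.93 in vector clone 1 and 8.89 in vector clone 3, and of 5.66, 3.45 and 3.65 in DDB2 clones 1, 2 and 3. Every DDB2 clone was thus below both vector clones, but DDB2 clone 1 was only 0.27 below vector clone 1, whereas vector clone 3 stood 2.96 above vector clone 1. The mean was 8.93-fold lower in the DDB2 clones, with a log2 difference (mean of the DDB2 clones minus mean of the vector clones) of -3.16. Without vector clone 3 the log2 difference was -1.68, and without vector clone 1 it was -4.64. The values in DDB2 clones 2 and 3 lay under the filter level, so part of this difference rests on dim signals. In RNA of whole cultures, fewer cells that express a gene and less RNA per cell cannot be told apart.

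The nuclear phosphatases of the same family did not share this pattern. DUSP4, which acts on ERK and other MAP kinases, had 5.05 and 5.14 in vector clones 1 and 3 and 5.08, 4.97 and 4.96 in DDB2 clones 1, 2 and 3. Its 5 values spanned only 0.18 and the groups overlapped. The log2 difference was -0.09 (95% confidence interval, CI, -0.34 to 0.16, unadjusted P = 0.384 from limma). DUSP5, which is specific for ERK, had 5.49 and 5.93 in the vector clones, against 5.40, 6.08 and 6.39 in the DDB2 clones. The groups overlapped, and DDB2 clones 2 and 3, the lowest for DUSP6, were the highest for DUSP5. Its log2 difference was 0.25 (-0.64 to 1.13, unadjusted P = 0.503 from limma).

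SPRY2, an inhibitor of signaling from receptor tyrosine kinases to Ras, had log2 values of 7.42 and 8.56 in vector clones 1 and 3, and of 7.95, 5.35 and 5.21 in DDB2 clones 1, 2 and 3. The value in DDB2 clone 1 lay between those of the vector clones, while DDB2 clones 2 and 3 were at least 2.07 below every other clone. The log2 difference of -1.82 (standard error, SE, 0.983, 95% CI -4.39 to 0.75, unadjusted P = 0.127 and adjusted p = 0.999 from limma) did not pass the threshold. Without DDB2 clone 1 it was -2.71 (unadjusted P = 0.00374 from limma) and passed both thresholds of the study. Without DDB2 clone 2 it was -1.41 and without DDB2 clone 3 -1.34 (unadjusted P = 0.277 and 0.274 from limma). Without vector clone 3 it was -1.25. As the value of DDB2 clone 1 lay among the vector clones, nothing is read from the P without it.

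SPRY4, a relative of SPRY2, had 6.57 and 7.14 in the vector clones, against 6.56, 6.67 and 6.53 in the DDB2 clones. Vector clone 3 was the highest and the other 4 clones lay within 0.13 of each other. The log2 difference was -0.27 (95% CI -0.77 to 0.23, unadjusted P = 0.222 from limma), and it was 0.015 without vector clone 3. SPRED1, which brings neurofibromin to the membrane to switch off Ras, had 7.22 and 7.59 in the vector clones, against 7.49, 7.24 and 7.18 in the DDB2 clones. The groups overlapped, with a log2 difference of -0.10 (-0.54 to 0.34, unadjusted P = 0.563 from limma) that was 0.079 without vector clone 3.

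ETV4, an ETS factor of the PEA3 group, had log2 values of 6.95 and 6.97 in vector clones 1 and 3, and of 7.04, 6.21 and 6.19 in DDB2 clones 1, 2 and 3. DDB2 clone 1 was not below either vector clone. As for SPRY2, DDB2 clones 2 and 3 stood apart, here by 0.74 or more. The log2 difference was -0.48 (SE 0.30, 95% CI -1.27 to 0.30, unadjusted P = 0.174 from limma). Without DDB2 clone 1 it was -0.76 (unadjusted P = 0.0021 from limma), which is under the fold threshold. Without DDB2 clone 2 it was -0.35 and without DDB2 clone 3 -0.34 (unadjusted P = 0.363 and 0.357 from limma). As DDB2 clone 1 lay with the vector clones, nothing is read from the P without it. ETV5, of the same group as ETV4, had 6.90 and 6.82 in the vector clones, against 7.00, 7.21 and 6.74 in the DDB2 clones. DDB2 clones 2 and 3 held its highest and its lowest value, and the log2 difference was 0.12 (-0.30 to 0.55, unadjusted P = 0.489 from limma).

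PHLDA1, a pleckstrin homology-like protein induced by growth factors, had log2 values of 7.26 and 6.62 in vector clones 1 and 3, and of 4.95, 5.51 and 5.65 in DDB2 clones 1, 2 and 3. All 3 DDB2 clones were below both vector clones, the nearest pair being 0.97 apart. In contrast to DUSP6 and SPRY2, DDB2 clone 1 was the lowest and vector clone 1 the highest. The mean was 2.97-fold lower in the DDB2 clones, a log2 difference of -1.57, which stayed between -1.89 and -1.25 with each clone left out in turn. EPHA2, a receptor for ephrins, had 7.44 and 7.20 in the vector clones, against 7.26, 7.62 and 7.31 in the DDB2 clones. Its groups overlapped, with a log2 difference of 0.08 (95% CI -0.34 to 0.49, unadjusted P = 0.646 from limma).

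**Figure D1:**
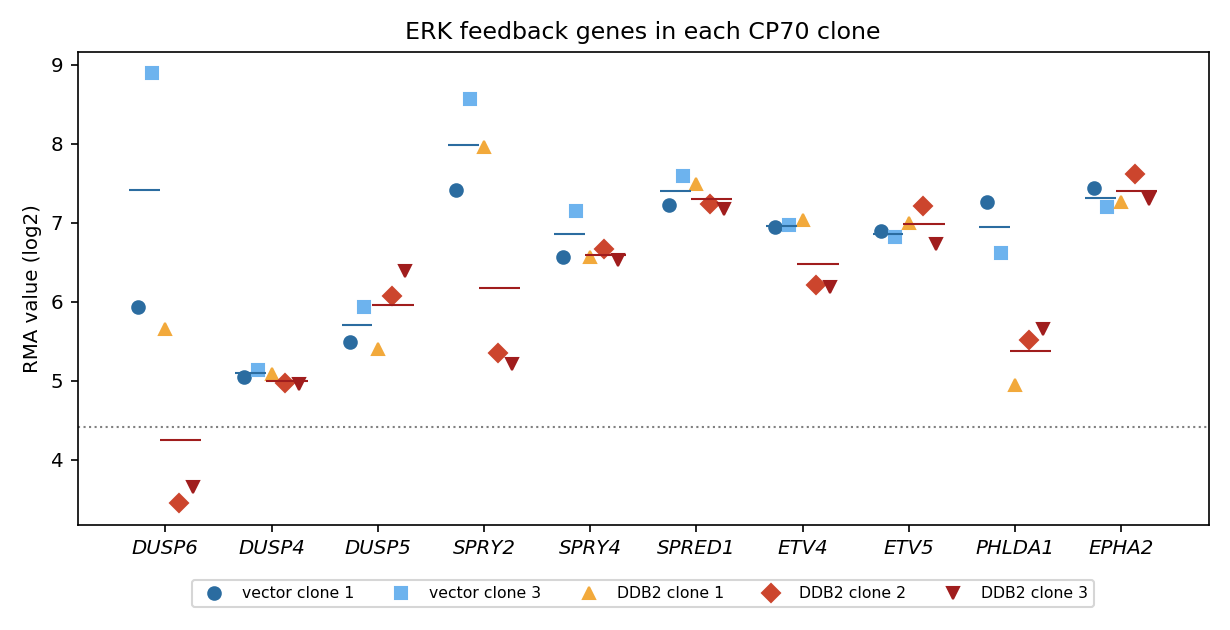
Log2 RMA value (vertical axis) of each ERK feedback gene in the 5 clones, 1 point per clone, with short lines at the group means and a dotted line at the filter level of 4.42. DUSP6 and SPRY2 are lowest in DDB2 clones 2 and 3, PHLDA1 is lowest in DDB2 clone 1, and the 5 values of DUSP4 lie within 0.18.

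DUSP6 and PHLDA1 were past the thresholds of the study, as lower, and the other 8 members were not. Over all genes tested, 0.192% were past them as lower and 0.167% as higher. DUSP6 and PHLDA1 were also the only members with all 3 DDB2 clones below both vector clones, as were 12.6% of all genes, and no member had all 3 above, as did 5.91%. Nothing is read from the count of the pair, which the choice of the list fixes. None of the other 8 had an unadjusted P under 0.05 from limma, as did 2.91% of all genes. Of the 10 log2 differences, 7 were below 0 and 3 above, with a median of -0.19. The median of the 8 was -0.10, against -0.02 over all genes. For SPRY2 the interval runs from -4.39 to 0.75, so a fall as large as that of DUSP6 is not outside it. In contrast, the intervals of DUSP4, SPRY4, SPRED1, ETV5 and EPHA2 stay within a fold change of 2 in either direction. The signal of DUSP4 lay not far above the filter level, which limits what its narrow interval shows. No gene of the array had an adjusted p under 0.05 from limma (455 genes had an unadjusted P under 0.05), and with 2 clones against 3 a two-sided exact permutation test cannot go below p = 0.1.

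**Figure D2:**
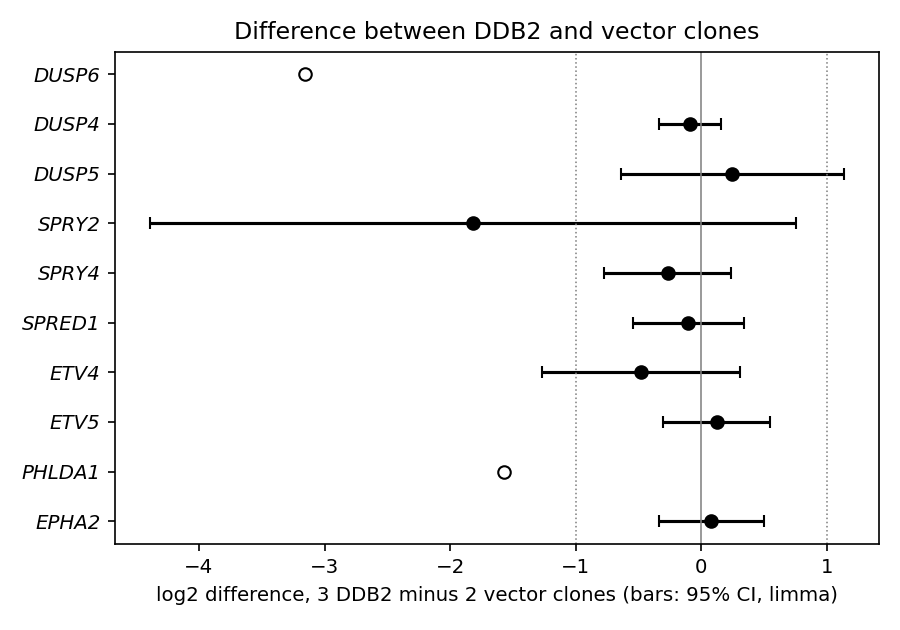
Log2 difference of each ERK feedback gene (3 DDB2 minus 2 vector clones, horizontal axis) with dotted lines at a fold change of 2 in either direction. Bars are the 95% CI from limma and are left off DUSP6 and PHLDA1 (open circles), whose difference chose the list. SPRY2 (-1.82) has the widest interval, which reaches 0.75.

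DUSP6 and SPRY2 differed more among clones of the same group than most genes did. The vector clones were 2.96 apart for DUSP6 and 1.14 apart for SPRY2, against a median gap of 0.20 over all genes, and 99.9% and 96.3% of genes had a smaller gap. Vector clone 3 was the highest clone for DUSP6, DUSP4, SPRY2, SPRY4 and SPRED1, but only by 0.06 over DDB2 clone 1 for DUSP4 and by 0.10 for SPRED1. The share of all genes highest in that clone was not computed, so nothing is read from how many members were. Among the DDB2 clones, the range was 2.75 for SPRY2 and 2.21 for DUSP6, against a median of 0.30, and 99.1% and 98.6% of genes had a smaller range. For both genes DDB2 clone 1 was at least 2 above the higher of DDB2 clones 2 and 3, as in 0.346% of all genes. That level of 2 was not planned and lies just under the 2.01 of DUSP6, so this share is only a description. DDB2 clones 2 and 3 were within 0.20 of each other for DUSP6, 0.14 for SPRY2 and 0.02 for ETV4. PHLDA1 had the opposite order in both groups, with vector clone 3 below vector clone 1 by 0.64 and DDB2 clone 1 below the mean of the other two by 0.63. Among the DDB2 clones, clone 1 had the highest value of both DDB2 and DUSP6. For each gene, the 20 neighbours in chromosome order were taken among the genes tested only. Around DUSP6, SPRY2 and ETV4 their median difference, DDB2 clone 1 minus the mean of clones 2 and 3, was 0.29, 0.16 and 0.25. The genes themselves had 2.11, 2.68 and 0.84.

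**Figure D3:**
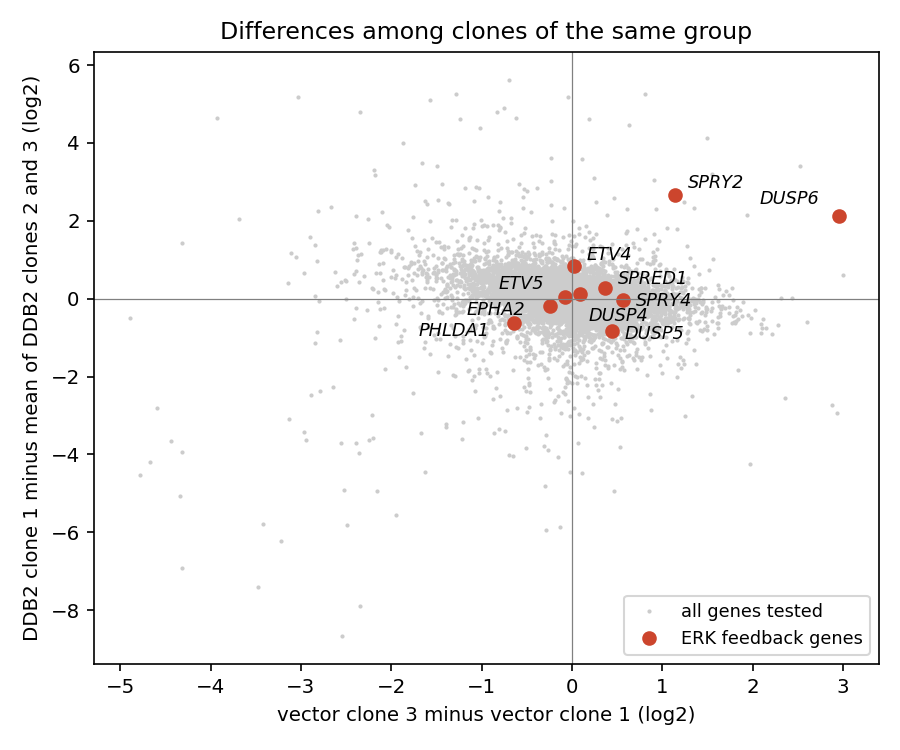
Difference between the vector clones (clone 3 minus clone 1, log2, horizontal axis) against that among the DDB2 clones (clone 1 minus the mean of clones 2 and 3, log2, vertical axis), for all 15612 genes in grey and the ERK feedback genes in red. DUSP6 at 2.96 and 2.11 and SPRY2 at 1.14 and 2.68 lie far to the upper right, and PHLDA1 at -0.64 and -0.63 lies to the lower left.

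Likeness to DUSP6 was measured as the root mean square difference of the values over the 5 arrays, after the mean of each gene over these arrays was subtracted. The 5 nearest of 15611 other genes were LRP1B, of the LDL receptor family (0.767), SPRY2 (0.902), NLRP2 (0.932), EEIG2 (0.960) and the long non-coding RNA gene DLGAP1-AS3 (0.961). SPRY2 therefore ranked 2. The next members were ETV4 at rank 239 (1.67), PHLDA1 at rank 320 (1.70) and SPRY4 at rank 793 (1.79), while DUSP5 ranked 14085 (2.14). The measure weighs the size of a change as well as its shape, so genes that vary little cannot come near DUSP6. For PHLDA1, the nearest genes were ATP1B1, a subunit of the sodium pump (0.359), RALGPS2 (0.362), SNX10, a sorting nexin (0.408), RIMKLB (0.412) and PLLP (0.418). No member was near PHLDA1. The closest was SPRY4 at rank 2564, and SPRY2 and DUSP6 were at ranks 15367 and 15521, among the farthest by this measure. The range over the 5 arrays was 5.44 for DUSP6 and 3.35 for SPRY2, against 2.31 for PHLDA1. Part of their distance from PHLDA1 is therefore size, and these ranks do not show how alike the shapes are.

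Around the members, 101 of 139 genes in 11 lists of the ERK pathway were tested, and none passed the thresholds of the study, as did 0.359% of all genes in either direction. Their median log2 difference was -0.01, and 5 of the 101 had an unadjusted P under 0.05 from limma, as did 2.91% of all genes. These were ETS2, an ETS factor (-0.67), PDGFA, a growth factor (-0.33), KSR1, a scaffold of the cascade (-0.33), RASA2, a Ras GTPase-activating protein (-0.29), and EPHA5, an Eph receptor (0.86). The other MAP kinase phosphatases, 6 of 7 tested, ran from -0.27 for DUSP2 to 0.33 for DUSP16. The 3 other Sprouty and Spred genes of 4 ran from -0.19 for SPRED2 to 0.20 for SPRY1. The 5 other ETS factors of 7 ran from -0.67 for ETS2 to 0.38 for ELK3, and both other PHLDA genes lay near 0 (-0.02 for PHLDA2 and 0.05 for PHLDA3). Of the immediate early and other ERK output genes, 16 of 18 were tested, from -0.62 for EGR1 to 2.10 for JUN, with a median of 0.11. CCND1, which encodes cyclin D1, had 0.25 (95% CI -0.55 to 1.05).

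Upstream of ERK, 23 of 28 genes of the cascade were tested and ran from -0.37 for RRAS to 1.64 for RPS6KA6, with a median of 0.05. The 12 other negative regulators of 15 ran from -0.32 for IL17RD to 0.08 for LZTR1. The 10 receptor tyrosine kinases of 17 ran from -0.53 for AXL to 1.09 for EGFR, and the 10 ligands of 21 from -0.38 for HGF to 0.45 for FGF1. The 7 other Eph receptors of 12 ran from -0.14 for EPHB6 to 0.86 for EPHA5, and the 7 ephrins of 8 from -0.21 for EFNB3 to 0.38 for EFNA1. In a known score of MAP kinase activity, 9 of its 10 genes were tested, 8 of them members and the other CCND1. DUSP6 and PHLDA1, the pair by which the ERK feedback genes were chosen, were past the thresholds and 7 genes were not, so nothing is read from this count, beside 0.359% of all genes past them in either direction.

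**Figure D4:**
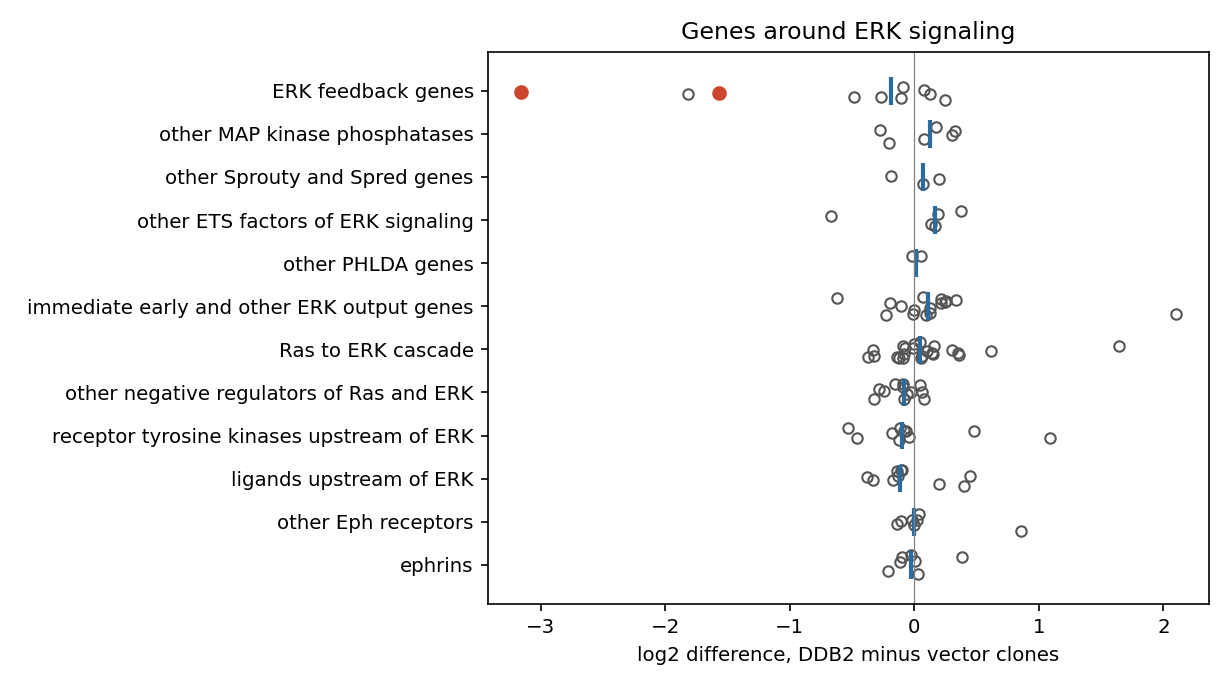
Log2 difference (DDB2 minus vector clones, horizontal axis) of each tested gene in the ERK feedback list and 11 other lists, with genes past the thresholds of the study filled in red and the median of each list as a blue bar. DUSP6 and PHLDA1 are the only filled points, and JUN at 2.10 lies farthest to the right.

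Several genes of these lists parted DDB2 clones 2 and 3 from DDB2 clone 1, as did DUSP6, SPRY2 and ETV4. Those given here are examples. The share of all genes with such a split in either direction was not computed, so it is not shown to be particular to these lists. EGFR, the receptor of epidermal growth factor, had log2 values of 6.44 and 5.58 in vector clones 1 and 3, and of 4.80, 8.43 and 8.07 in DDB2 clones 1, 2 and 3. DDB2 clones 2 and 3 were thus the highest and DDB2 clone 1 the lowest, a 10.9-fold difference between clone 1 and the mean of the other two. The log2 difference between the groups was 1.09 (95% CI -2.10 to 4.28, unadjusted P = 0.414 from limma). JUN, a subunit of the AP-1 factor, had 6.16 and 5.97 in the vector clones, against 6.43, 9.21 and 8.85 in the DDB2 clones. Here DDB2 clone 1 was close to the vector clones, and the difference between the groups had an unadjusted P = 0.0709 from limma. HGF, the ligand of the receptor MET, had 8.57 and 8.48 in the vector clones, against 9.69, 7.35 and 7.39 in the DDB2 clones. It was highest in DDB2 clone 1 and lowest in DDB2 clones 2 and 3. MET itself was under the filter level in every clone (2.53 to 2.71). The receptor ERBB3, chosen after its values were seen, had 5.78 and 6.11 in the vector clones, against 4.96, 6.87 and 7.45 in the DDB2 clones, with DDB2 clones 2 and 3 again the highest and DDB2 clone 1 the lowest. With 1 array per clone, the differences among the DDB2 clones have no replicate and were not tested.

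**Figure D5:**
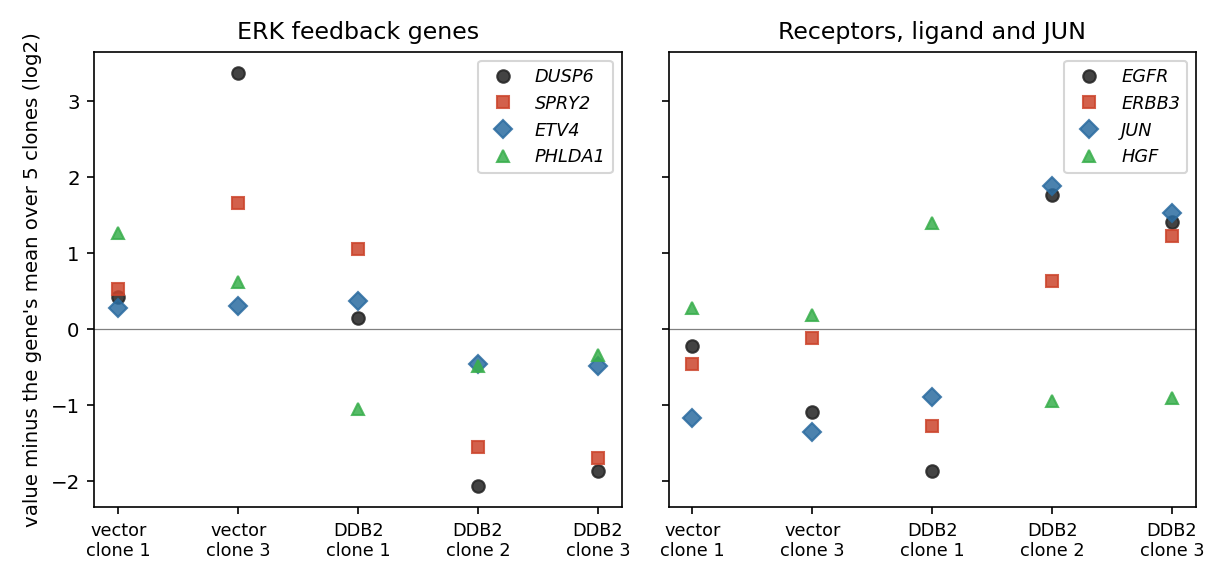
Log2 value minus the mean of the gene over the 5 clones (vertical axis), by clone (horizontal axis), for 4 ERK feedback genes on the left and for EGFR, ERBB3, JUN and HGF on the right. DUSP6, SPRY2, ETV4 and HGF are low in DDB2 clones 2 and 3, where EGFR, ERBB3 and JUN are high, and PHLDA1 is lowest in DDB2 clone 1.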

How the data were processed

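Total RNA of 5 CP70 clones was hybridized to a GeneChip Human Transcriptome Array, 1 array per clone. The values deposited by the authors come from RMA in the Affymetrix console (background correction, normalization and summary over probes) and were taken as log2, a scale read from their range. Of 70523 entries, 67528 transcript clusters were used, and 34872 were kept that lay above 4.42, the median over all clusters and arrays, on 2 or more arrays, in place of the noise filter of the study, whose level the text does not give. A gene is a symbol that a probe set carries alone, by its brightest set. DDB2 and vector clones, grouped by the labels, were compared by lmFit and eBayes of limma 3.58.1 under R 4.3.3, with 1.72 prior degrees of freedom, on all probe sets kept, with Benjamini-Hochberg adjustment over them. The code was tested on simulated data. Precision is limited by the number of arrays. The members and gene lists were chosen with earlier results of these data known. Named are all members, list genes past the thresholds or at either end of a list, and the 5 genes nearest to DUSP6 and to PHLDA1. Genes named outside this rule were chosen after their values were seen. They are those with an unadjusted P under 0.05 from limma, CCND1, ERBB3 and MET in the report, and those of the closing section. Promoters came from the RefSeq table of GRCh38.p14. Alternatives were other filters, scalings, variance models, call rules, probe set means, replicate blocks, and each array left out.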

Additional observations from a re-analysis of the deposited data

How the results depend on the processing

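Of 168 values of members recomputed under up to 17 alternatives each, 154 kept their direction and their side of the thresholds. Other filters, variance models, call rules and probe set means leave the log2 difference of a member unchanged, so its direction could not turn there. At an adjusted p under 0.05 no gene passed, so members not past the thresholds could not change side. Part of this count was thus fixed in advance, and it does not measure robustness. Genes past the thresholds numbered 56 (26 higher and 30 lower), against 36 with the filter at the 75th percentile, 22 with equal variances without shrinkage, 163 with a fold change over 1.5 and 0 at an adjusted p under 0.05 from limma (455 at an unadjusted P under 0.05). With each clone left out in turn they ranged from 45 to 230. Of the members, 2 were past the thresholds as lower, against 1 at the 75th percentile filter, a level that removes DUSP6 and DUSP4, and 1 with equal variances, where DUSP6 was lost, and 0 at an adjusted p under 0.05. With each clone left out they ranged from 1 to 3, the lowest without any one of vector clone 3 and DDB2 clones 2 and 3, where DUSP6 was lost, and the highest without DDB2 clone 1, where SPRY2 was added. The calls of DUSP6 and PHLDA1 are a description, since this difference chose the list. No alternative had a member past the thresholds as higher. Without vector clone 3 the sign turned for 3 members. With each clone left out, the log2 difference of SPRY4 ranged from -0.56 to 0.015, that of SPRED1 from -0.29 to 0.079 and that of EPHA2 from -0.043 to 0.20, the turned values being those without vector clone 3 and, for EPHA2, also without DDB2 clone 2 (-0.035). The cause was not tested.

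With a replicate block made of the title numbers, 1 member was past the thresholds as lower, DUSP6 being lost at -2.76, the log2 difference of EPHA2 turned to -0.035, and 62 genes were past them. With a replicate block made of the source name numbers, 1 member, again without DUSP6 (-2.86), and 92 genes were. Each block sets 1 DDB2 clone aside, since no vector clone has its number. Deviations from the group means correlated at 0.13 for the clones titled 1, at 0.34 for those titled 3, and at -0.25 for those called clone 2 in the source names, across probe sets, which are not independent. The clones share a number and are not known to be paired.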

Other observations

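A few genes of the ERK lists that the filter left out stood apart in a single clone, and were not tested. They were chosen after their values were seen. EPHA4, an Eph receptor of the MAP kinase activity score, had a log2 value of 7.41 in DDB2 clone 3 and of 3.72 to 3.96 in the other 4 clones. EPHA7, another Eph receptor, had 5.84 in DDB2 clone 1, 4.31 in vector clone 1 and between 3.29 and 3.56 in the rest. EREG, which encodes the EGF receptor ligand epiregulin, had 4.30 in vector clone 1 and 2.75 to 2.98 in the others, under the filter level in every clone. RPS6KA6, a kinase of the RSK family that ERK activates, was tested and had 6.17 and 4.53 in vector clones 1 and 3 and 8.00, 6.48 and 6.50 in DDB2 clones 1, 2 and 3, a log2 difference of 1.64 (95% CI -0.23 to 3.51, unadjusted P = 0.0734 from limma).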
